A study of Mus musculus with 4 samples.

Results

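The spots described here come from a Visium experiment on mouse lung sections. In them 5 transcripts of B cells and plasma cells together made up a larger share of the RNA than in the other spots scored in that section. A Visium spot is a small printed patch of a glass slide that captures the mRNA of the tissue lying on it, so each spot is a small region that can hold several cells of different types, and each captured molecule is counted once through a unique molecular identifier (UMI). Every spot with at least 2000 UMIs was given a score, the summed UMIs of Igkc, Iglc2, Jchain, Cd79a and Mzb1 divided by all UMIs of the spot, and the highest 5% of spots of each section were selected as members. This gave 231 members among 4632 spots with at least 2000 UMIs, of 4933 spots in all 4 tables. Values for the 4 sections are given below in a fixed order, NV male, NV female, V male, V female, wherever 4 stand together. The members were 39 of 781, 22 of 436, 74 of 1489 and 96 of 1926 spots. The other 4401 spots, taken within the same section, served as the comparison.

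The mice were C57BL/6J. Vaped (V) mice breathed aerosol of Peach Ice flavoured vape juice (ORGNX, 70VG/30PG) from JUUL pens inside a whole-body chamber for 4 h daily, 5 days a week, during 9 weeks, and Non-Vaped (NV) mice had no exposure. Each group held 1 male and 1 female, each giving 1 cryosection from the upper lung, so sex and replicate number coincide and every comparison of V with NV rests on 2 mice against 2. The sections held 473 to 2053 spots and 6957392 to 34308556 UMIs, of which 92.2% to 95.1% of spots passed the minimum of 2000 UMIs. The same slide barcodes recur between sections (277 to 1167 shared per pair), which marks the same position on the printed grid and not shared tissue.

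B cells carry the receptor components CD79A and CD79B on their surface. After activation some become plasma cells, which fill with endoplasmic reticulum and secrete antibody made of heavy and light chains. IgM is the first class made, and IgA is the class that dominates at mucosal surfaces such as the airway. The light chains are kappa, from Igkc, or lambda, from the Iglc genes. The J chain, from Jchain, joins IgM and IgA into multimers that epithelia can carry into secretions, and Mzb1 is a chaperone of the endoplasmic reticulum of antibody-making cells.

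Each score gene and heavy chain gene lay at a single place in the mouse genome (GRCm38, GENCODE vM21). Igkc lies on chromosome 6 from 70726435 to 70726966, Jchain on chromosome 5 from 88519809 to 88527891, Cd79a on chromosome 7 from 24897381 to 24902197, Ighm on chromosome 12 from 113418558 to 113422730 and Igha on chromosome 12 from 113254830 to 113260236. Iglc2 and Iglc3 are near copies on chromosome 16, and since the first is in the score and the second is not, their opening coding bases are shown to let a reader see how far reads can tell them apart. Both are written 5′ to 3′ on the minus strand of GRCm38, 150 coding bases each, Iglc2 from chr16:19198701-19198850 and Iglc3 from chr16:19065530-19065679, with the 7 bases that differ in capitals:
Iglc2: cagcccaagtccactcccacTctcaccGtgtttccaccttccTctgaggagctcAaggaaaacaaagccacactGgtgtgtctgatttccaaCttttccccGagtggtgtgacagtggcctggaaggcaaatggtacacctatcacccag
Iglc3: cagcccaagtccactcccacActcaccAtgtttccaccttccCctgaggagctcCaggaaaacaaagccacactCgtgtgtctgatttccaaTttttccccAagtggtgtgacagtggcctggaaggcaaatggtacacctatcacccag
Over the 312 coding bases that the pair share in frame, 301 were the same (96.5% identity), and over 138 aligned bases of the 3′ untranslated ends 129 were the same (93.5%). Iglc1 matched Iglc2 at 75.8% of its aligned coding bases and 60.4% of the aligned 3′ untranslated bases. Counts of Iglc3 may therefore hold reads of Iglc2 and are not free of the rule, while Iglc1 is set further apart.

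The score fell steeply with rank in every section. Levels are given as CPM, the UMIs of a gene or list per 1000000 UMIs of the spots summed. The last member and the first spot left out stood at 2197 and 2197 CPM (NV male), 2351 and 2271 (NV female), 1112 and 1108 (V male), and 1452 and 1445 CPM (V female). The cutoff thus falls inside a continuous range of values and not at a gap. In the V male the last member had only 3 UMIs of the score genes. Members with fewer than 10 such UMIs numbered 6 of 39, 1 of 22, 43 of 74 and 19 of 96. At the other end a few spots carried much of the signal, with the 3 highest spots holding 63.7% of all score gene UMIs of the members in the NV male and 51.0%, 29.2% and 21.9% in the next 3 sections.

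**Figure D1:**
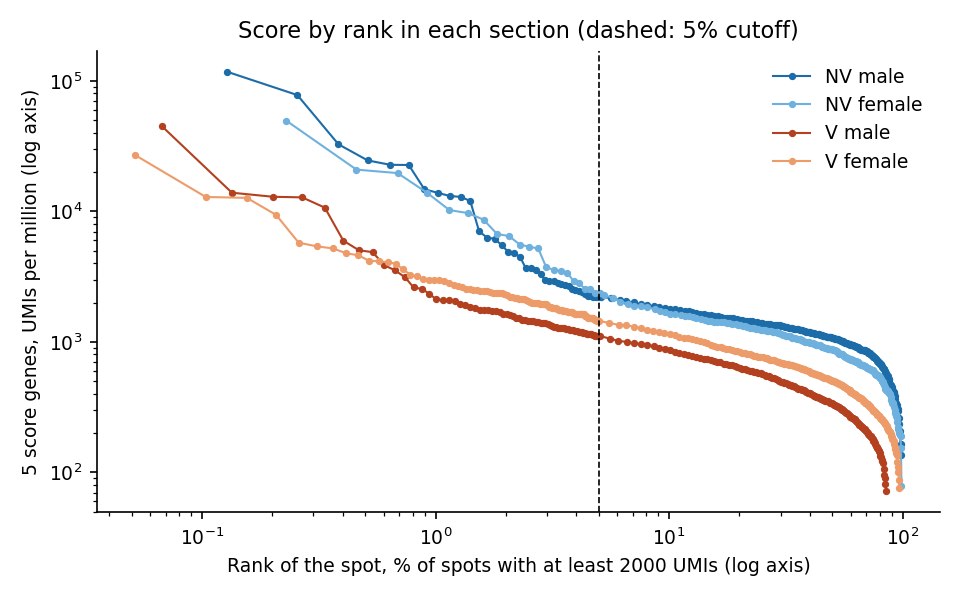
Summed level of the 5 score genes in each spot (CPM, log axis) against its rank within the section (% of spots with at least 2000 UMIs, log axis), 1 line per mouse. The highest spot reached 117285 in the NV male and 26842 in the V female, and the lines pass the dashed 5% cutoff between 1112 and 2351 without a break.

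Summed over the members, the 5 score genes made up 18403, 9303, 3835 and 3234 CPM. In the other spots of the same sections the values were 999, 836, 352 and 470. The members were selected on these values, so the ratios of 18.4, 11.1, 10.9 and 6.88 describe the selection and carry no test. Members held 51.9%, 50.0%, 33.5% and 26.0% of the score gene UMIs of their sections. Their depth was close to that of the other spots in the V female (medians of 12336 and 12212.5 UMIs), lower in the NV male (8397 and 10178.5) and the V male (5750 and 6564), and higher in the NV female (16039 and 10927.5).

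The score was mostly a light chain score. Igkc supplied 82.1% of the members' score UMIs in the NV male and 75.9% and 72.2% in the V mice, while in the NV female Iglc2 supplied 61.7% and Igkc 22.6%. Jchain added 12.7% to 19.2% in the 4 sections. Cd79a, the B cell receptor component, gave 2.82% at most and Mzb1 1.55% at most.

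Each score gene was next examined in spots selected on the other 4 genes alone, which frees its own level from the choice. Jchain was then 30.3, 20.0, 20.8 and 12.2 times as high in members as in other spots. Igkc was 18.9, 3.89, 9.87 and 5.45 times as high, Iglc2 6.72, 20.1, 2.88 and 4.42 times, and Mzb1 7.99, 3.5, 6.54 and 3.39 times. These 4 genes, all abundant in antibody-secreting cells, were higher in members of every section. Cd79a behaved otherwise, at 0.645, 3.03, 1.53 and 1.62 times the level of other spots. In the NV male it was lower in members than elsewhere, at 46.0 against 71.2 CPM.

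The 5 genes of the label therefore did not mark members alike. Antibody and plasma cell transcripts were raised in all 4 sections, while the B cell gene Cd79a was raised in 3 of them. In such spots a larger number of B lineage cells and more RNA per cell cannot be told apart.

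**Figure D2:**
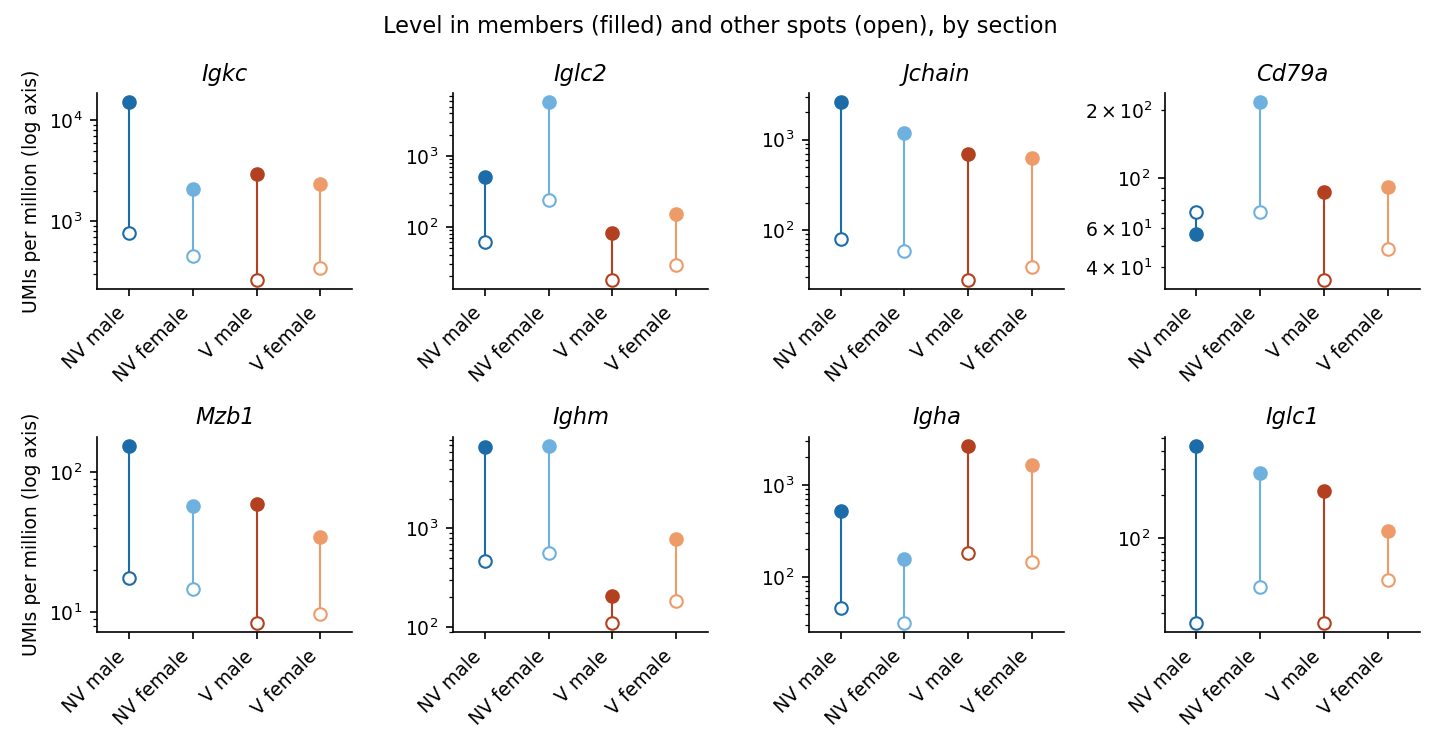
Level of the 5 score genes and of Ighm, Igha and Iglc1 in members (filled points) and other spots (open points) of each of the 4 mice, in CPM on log axes. Ighm in members stood near 6680 to 6894 in the NV mice and 206 to 787 in the V mice, Igha stood highest in the V mice, and Cd79a was lower in members than in other spots of the NV male.

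Genes outside the score were then compared between members and other spots, on counts summed per section and class, with edgeR's quasi-likelihood test and the section as a block. Of 12819 genes tested, 4 passed an adjusted p of 0.05 with a log2 fold change over 0.25, or 0.0312%, all higher in members (0.0312% called higher and 0% called lower). At an unadjusted p under 0.05 there were 903 genes (7.04%). All 4 called genes encode antibody constant regions. Igha, the IgA heavy chain, had a log2 fold change of 3.39 (SE 0.22, adjusted p = 5.69e-06, edgeR). Iglc1, a lambda light chain, had 2.77 (SE 0.36, adjusted p = 0.0152, edgeR), and Ighm, the IgM heavy chain, 2.72 (SE 0.41, adjusted p = 0.0372, edgeR). Iglc3 had 2.45 (SE 0.35, adjusted p = 0.0321, edgeR) with the sharing of reads given above. Each of the 4 genes was higher in members of all 4 sections. With the highest 2.5% of spots as members 0 genes were called, and with members selected on Cd79a and Mzb1 alone 293 were called, 60 higher and 233 lower.

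The per-section values of the heavy chains show how different the members of the 4 mice were. Ighm stood at 6680, 6894, 206 and 787 CPM in members and at 473, 562, 109 and 186 CPM in other spots. Igha stood at 523, 158, 2658 and 1660 CPM in members and at 46.3, 31.5, 182 and 146 CPM in other spots. In members the NV and V mice did not overlap for either gene, with IgM high in both NV mice and IgA high in both V mice. Of the 8138 genes tested between these members, 42.8% were likewise without overlap. The 3 highest-scoring spots held 65.2% of the members' Ighm UMIs in the NV male and 59.8% in the NV female. Iglc1 stood at 437, 284, 213 and 112 CPM in members, against 25.3 to 51.0 CPM in other spots. Single spots carried much of it. In the V female the spot of rank 68 held 92 of the members' 186 Iglc1 UMIs. In the V male the spots of rank 45 and 63 held 50 and 28 of 111. The largest count in a member was 49 of 226 in the NV male and 58 of 162 in the NV female.

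The remaining heavy chains were low. Ighd, the IgD chain of naive B cells, was at 59.2 to 77.0 CPM in members and 42.8 to 85.5 elsewhere, with a log2 fold change of 0.26 (SE 0.15) that was not called. The 4 IgG genes together gave 8 to 43 UMIs in the members of a section, and Ighe, the IgE chain, was at 0 in the members of all 4.

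Among the lists of other genes, the Ig constant list had 4 of 6 tested members called, all higher, with a median log2 fold change of 2.59 against 0.01 over all genes tested. Of the 16 B cell genes 0 were called, 9 had an unadjusted p under 0.05 and the median was 0.61, with all 16 estimates above 0. The summed list stood at 414, 963, 313 and 556 CPM in members against 436, 453, 223 and 303 CPM in other spots, so in the NV male it was lower in members. Cd79b, the receptor component and the most abundant gene of the list, was at 61.9, 168, 69.2 and 96.0 CPM in members against 90.9, 80.0, 39.6 and 58.9 CPM in other spots (log2 fold change 0.61, SE 0.20, not called). Fcmr, the IgM receptor, was likewise lower in members of the NV male (23.2 against 34.6 CPM) and higher in the other 3 mice. Ly6d, a surface protein of the B lineage, stood at 69.7, 156, 36.5 and 65.8 CPM in members against 32.4, 54.5, 22.3 and 37.9 CPM in other spots (log2 fold change 1.11, SE 0.18, adjusted p = 0.0548, edgeR). Ms4a1, which encodes CD20, had a log2 fold change of 1.08 (SE 0.22) and was not called.

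Of the 14 plasma cell genes 0 were called, 9 had an unadjusted p under 0.05 and the median was 0.78. Pou2af1, a coactivator of antibody gene transcription, was at 34.8, 43.8, 28.9 and 12.7 CPM in members against 13.7, 16.7, 9.34 and 6.62 CPM in other spots (log2 fold change 1.35, SE 0.23, adjusted p = 0.0565, edgeR). The more abundant Txndc5, an enzyme of disulfide bond formation, had a log2 fold change of 0.40 (SE 0.16), Xbp1, the transcription factor of the secretory program, had 0.28 (SE 0.14), and neither was called. Sdc1, the plasma cell surface marker CD138 that lung epithelium also makes, had an estimate of -0.39 and Cd38 one of -0.07, and both were lower in members of all 4 sections without being called. The 16 secretory pathway genes had a median of 0.17 with 0 called, and the 11 genes of plasma cell survival and homing, 7 of them tested, had a median of -0.03 with 0 called.

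Of the lymphoid follicle list 11 genes were tested, 0 were called and the median was 0.40. Its most abundant genes, Clu and the chemokine gene Ccl21a, had log2 fold changes of 0.40 (SE 0.22) and 0.04 (SE 0.14). Cxcl13, the chemokine that draws B cells into follicles, was at 13.6, 383, 1.92 and 39.8 CPM in members against 15.2, 37.6, 1.60 and 8.59 CPM in other spots (log2 fold change 2.32, SE 0.38, adjusted p = 0.0548, edgeR). Its high value in the NV female came from 3 of the 22 members, with 55, 70 and 82 UMIs out of 219. Those 3 spots, ranked 9, 12 and 17 by score, also carried 26, 44 and 27 UMIs of Cd79a, whereas each of the 5 highest-scoring spots of that section had 3 or fewer. Of the T cell genes 10 were tested, 0 were called and the median was -0.14.

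The members thus held spots rich in antibody transcripts with little Cd79a, and a small number with B cell genes and Cxcl13. Taking instead the highest 5% of spots by the summed B cell list, 4 of 39 members (10.3% of each set), 4 of 22 (18.2%), 12 of 74 (16.2%) and 19 of 96 (19.8%) were shared. By the summed Ig constant list 22, 18, 28 and 47 were shared. Spots drawn at random would share about 5%. In the NV mice some tissue lists shared more than the B cell list. Smooth muscle genes shared 11 of 39 in the NV male, and macrophage and brown adipose genes 6 of 22 each in the NV female. In both V mice only the Ig constant list shared more than the B cell list. Across all spots of a section, the genes outside the score whose UMI share was most alike to the score among 8664 genes were Ighm (mean Spearman rho over 4 sections 0.30), Rpl13a (0.18), Cd74 (0.18), H2-K1 (0.16), Cd79b (0.16), Scgb1a1 (0.16), H2-Ab1 (0.16), Epas1 (0.15), Hba-a2 (0.15) and Iglc3 (0.15). The points of these correlations are spots of 1 library each and share its depth, and most of the values are weak. In the V male alone they ran from -0.009 (H2-K1) to 0.103 (Rpl13a). Scgb1a1 had a rho of 0.29 and 0.11 in the NV mice. Its summed level was nevertheless lower in their members, at 5205 against 12896.5 and 734 against 2237 CPM.

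The heavy chain class of the members differed between the mice. Ighm made up 91.7% and 96.5% of all heavy chain UMIs in members of the NV mice, against 6.99% and 31.1% in the V mice. Igha made up 7.17% and 2.21% in the NV mice and 90.3% and 65.6% in the V mice. With 2 mice against 2, the smallest p that an exact two-sided permutation test can reach is 0.33, so that test could not pass a threshold of 0.05 for this share, and the heavy chain genes are tested by edgeR below. With members selected on Cd79a and Mzb1 alone Igha made up 10.5%, 16.3%, 65.4% and 20.3%.

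The same was visible spot by spot. Among members with at least 5 heavy chain UMIs, Ighm led in 23 of 29 spots of the NV male and 20 of 21 of the NV female. Igha led in 27 of 34 spots of the V male (79.4%, 95% exact binomial interval 62.1% to 91.3%) and in 34 of 67 of the V female (50.7%, 38.2% to 63.2%), where Ighm led in 31. These intervals cover counting error only. The V female thus held both kinds in near equal number. Its highest spot had 301 Igha and 2 Ighm UMIs, and its spot of rank 4 had 1 and 199.

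**Figure D3:**
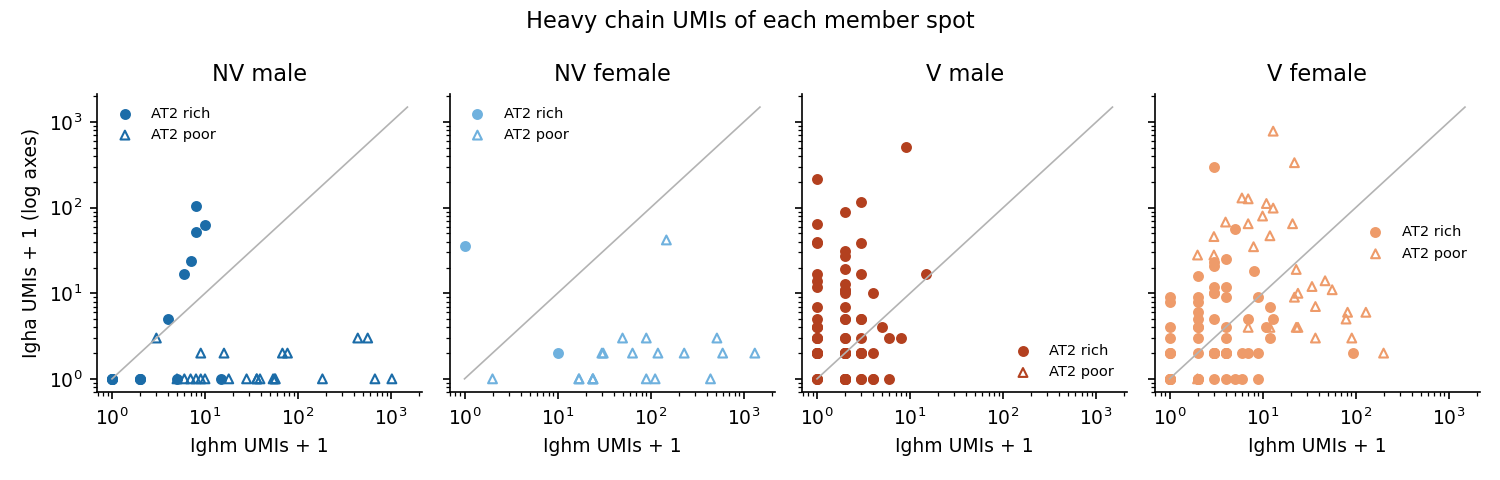
Igha against Ighm UMIs (1 added to each, log axes) for each member spot of the 4 mice. Filled circles are spots rich in AT2 genes and open triangles are spots poor in them. In the NV male the 6 spots led by Igha are all filled circles, and the V male has no open triangles.

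The tissue around the members also differed between the mice, as read from the 7 genes of alveolar type 2 (AT2) cells, the surfactant-making cells of the alveolus. The AT2 list stood at 0.426 and 0.258 times the level of other spots in members of the NV mice, but at 0.945 and 0.705 times in the V mice. White adipocyte genes went the other way, at 2.47 and 2.43 times in the NV mice against 0.758 times in the V female, while the V male section held almost none (2 UMIs in members). Macrophage genes stood at 1.79 and 2.20 times in the NV mice and 0.825 and 0.70 times in the V mice, but Fabp4, which adipocytes also make, gave 55.9%, 86.6%, 2.79% and 78.2% of the list's UMIs in members. Without Fabp4 the list stood at 1.44, 1.69, 0.835 and 1.12 times, above 1 in the V female as in the NV mice. Club cell genes, which mark the lining of conducting airways, stood at 0.408 and 0.390 times in the NV mice and 1.03 and 2.04 times in the V mice.

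Members were therefore divided, after their values were seen, into AT2-rich spots, whose AT2 share was at least 50% of the section's median, and AT2-poor spots. AT2-rich members were 15 of 39, 2 of 22, 74 of 74 and 63 of 96. In AT2-rich members Igha made up 76.2%, 73.5%, 90.3% and 65.4% of heavy chain UMIs. Within AT2-rich members the NV and V mice overlapped. The NV female value rests on 49 heavy chain UMIs in 2 spots, of which 36 were Igha, and the NV male value on 341 UMIs. Those 2 spots differed, 1 with 35 Igha and 0 Ighm UMIs and the other with 1 Igha and 9 Ighm UMIs. The NV female share thus comes from 1 spot.

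AT2-poor members showed the contrast by share of UMIs. In the NV male Ighm made up 99.1% of 3424 heavy chain UMIs there, and in the NV female 97.5% of 4030. In the V female Igha made up 65.6% of 3265. By spot that mouse was mixed. Of 32 AT2-poor members with at least 5 heavy chain UMIs, Ighm led in 17 and Igha in 15. Its spots of rank 2 and 17 held 784 and 335 of the 2142 Igha UMIs. Among NV male members, Igha led in 6 of 7 AT2-rich spots with at least 5 heavy chain UMIs. Igha led in 0 of 22 such AT2-poor spots, with an exact binomial upper bound of 15.4%. That bound covers counting error only, since spots of the same section are not replicates and were divided after their values were seen. AT2-poor members of the NV female carried white adipocyte genes at 21031 CPM and those of the NV male cardiac muscle genes at 29110, while those of the V female carried club cell genes at 39171. The V male had no AT2-poor members. Exposure and the tissue caught in the section cannot be told apart in the comparison of all members.

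In all other spots Igha made up 7.57%, 4.73%, 53.7% and 37.9% of heavy chain UMIs. The contrast of NV and V mice was thus not particular to members. The overlap seen in AT2-rich members was not found in AT2-rich other spots. In AT2-rich spots that were not members Igha made up 7.89%, 5.47%, 53.7% and 33.8% of heavy chain UMIs. There the NV and V mice did not overlap, on 2649 to 7811 heavy chain UMIs per section. Ighm led in 437 of 450 such spots with at least 5 heavy chain UMIs and 228 of 232 in the NV mice, against 66 of 263 and 379 of 647 in the V mice.

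**Figure D4:**
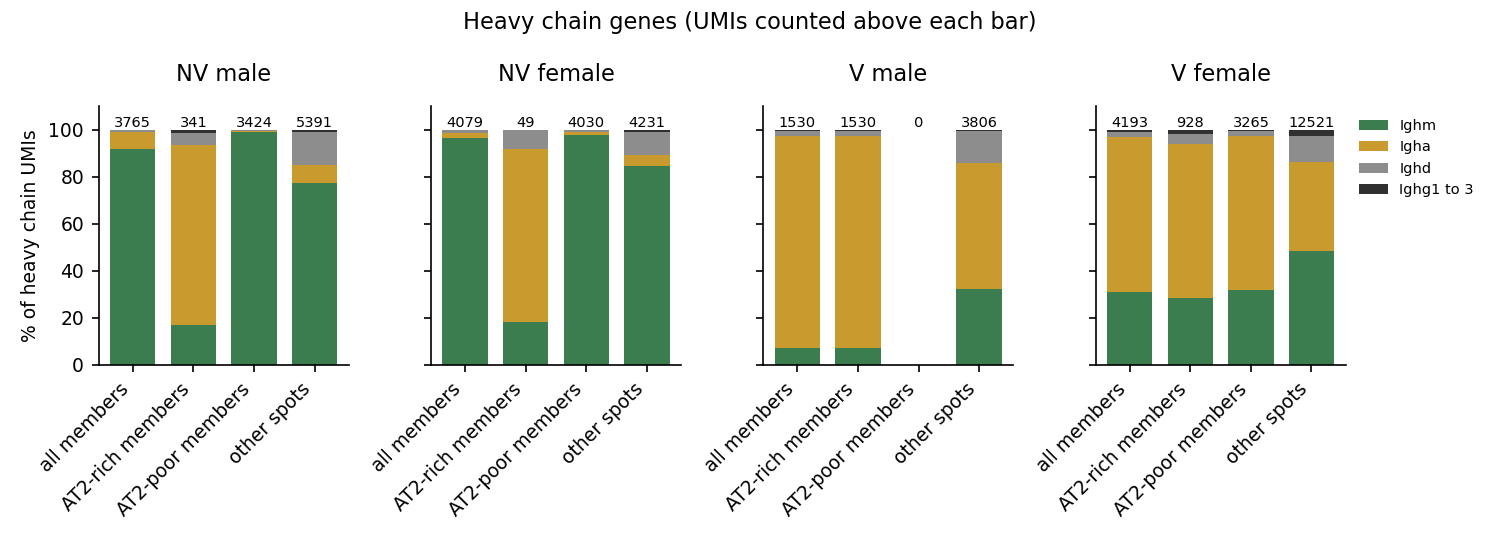
Share of heavy chain UMIs (%) from Ighm, Igha, Ighd and the IgG genes in all members, AT2-rich members, AT2-poor members and other spots of each mouse, with the number of UMIs above each bar. All members are mostly Ighm in the NV mice and mostly Igha in the V mice. AT2-rich members are mostly Igha by UMIs in all 4, from 65.4% to 90.3%, in the NV female through 1 of its 2 spots.

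Light chains set the NV female apart from the other 3 mice. Igkc made up 93.0% of light chain UMIs in members of the NV male and 89.8% and 87.6% in the V mice, but 23.9% in the NV female. In the NV female lambda UMIs exceeded kappa UMIs in 12 of 22 members. Igkc and Iglc2 are score genes, so these member shares are not free of the rule. In other spots lambda made up 13.8%, 42.4%, 18.2% and 22.9% of light chain UMIs. It led there in 6 of 601, 78 of 325, 13 of 236 and 48 of 1085 spots with at least 5 light chain UMIs. The high lambda share of the NV female was thus not particular to members. Its highest spot held 466 Iglc2, 53 Iglc3 and 7 Igkc UMIs beside 440 of Ighm, and its second held 1019, 108 and 145 beside 1320. The highest spot of the NV male, by contrast, held 1836 Igkc and 13 Iglc2 UMIs beside 670 of Ighm. Variable genes were sparse, and those given here were chosen after their values were seen. Iglv2, a lambda variable gene, gave 16 UMIs in NV female members and 1 or fewer in members of each other mouse, and Igkv15-103, a kappa variable gene, gave 10 UMIs in NV male members and 0 in the other 3.

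Members of V mice were then compared with members of NV mice directly, with edgeR on the 4 member sums. Of 8138 genes tested 0 were called (0% in either direction), with 435 (5.35%) at an unadjusted p under 0.05, a smallest adjusted p of 0.742 and 3 calls by DESeq2, all lower in V. Of these, Iglc2 is a score gene, whose level the rule used, and Iglc3 may share its reads, which leaves Ighm as the call outside the rule. With no filter on low counts edgeR called 362 genes, and 97 with the V male left out and 879 with the V female left out, where the single V mouse is assumed to vary like the NV mice. Values that did not overlap between the groups were common, in 3480 genes or 42.8%. Ighm had a log2 fold change of -3.91 (SE 0.82, adjusted p = 0.742, edgeR) and Igha one of 2.44 (SE 0.70, adjusted p = 0.742, edgeR), which turned to -0.36 with members selected on Cd79a and Mzb1 alone. All 5 tested genes of the Ig constant list were without overlap, 4 lower and 1 higher in V, against that 42.8% over all genes. None of them is in the score, but Iglc3, among those lower, may hold reads of Iglc2 and is not free of the rule.

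The score genes, on which the members were selected, are compared between the groups as a description with no test. Their sum in members averaged 13853 ± 6435 CPM in NV mice and 3535 ± 425 in V mice (SD, n = 2 each). Jchain in members was at 2586 and 1184 in the NV mice and at 696 and 619 in the V mice. In other spots the score genes averaged 917 ± 115 in NV and 411 ± 83.5 in V mice. Over all spots with at least 2000 UMIs, before any were selected, the sum was 1963 and 1534 CPM in the NV mice and 506 and 604 CPM in the V mice.

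The genes with the smallest unadjusted p among those without overlap are given as values. Higher in V members were Crb3, a polarity protein of epithelia (1.94 and 3.5 CPM in the NV mice, 44.2 and 28.4 in the V mice), Gipc2 (11.6 and 5.25 against 51.9 and 62.2), Chil3, a chitinase-like protein of alveolar macrophages (85.2 and 59.5 against 319 and 294), Fgfbp1 (1.94 and 5.25 against 50.0 and 27.8) and Mab21l4 (3.87 and 7.0 against 40.4 and 30.8). Lower were Srf, a transcription factor of muscle genes (42.6 and 28.0 against 7.69 and 7.85), Phgdh, an enzyme of serine synthesis (69.7 and 68.3 against 19.2 and 26.0), Pde2a (36.8 and 45.5 against 17.3 and 10.9), Ighm and Iglc3 (209 and 695 against 32.7 and 64.0). The NV values rest on few UMIs for Crb3 (1 and 2), Gipc2 (6 and 3), Fgfbp1 (1 and 3) and Mab21l4 (2 and 4). In other spots Chil3 stood at 137 and 236 in the NV mice and at 438 and 308 in the V mice. Crb3 stood there at 26.3 and 20.5 against 39.8 and 28.0, and Gipc2 at 21.7 and 22.2 against 49.8 and 34.4. Fgfbp1 stood there at 13.1 and 10.4 against 45.7 and 15.5, and Mab21l4 at 23.3 and 25.2 against 40.0 and 27.8. The AT1 list, of alveolar type 1 cells that form the gas exchange surface, had 7 of 7 genes higher in V members without overlap, as did 5 of 5 red blood cell genes, against 2458 of all 8138 genes tested. The AT1 count moves with the AT2 levels given above, and the part of the tissue in these differences was not tested.

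Last, the difference between members and other spots was itself compared between V and NV mice in 1 edgeR model. Of 13691 genes tested 292 were called (2.13%), 100 higher (0.73%) and 192 lower (1.4%) in V, and 1700 (12.4%) had an unadjusted p under 0.05. Of the Ig constant list 3 of 9 tested genes were called, all lower in V. Ighm had an interaction of -2.32 (SE 0.27, adjusted p = 6.71e-07, edgeR), Iglc3 of -2.0 (SE 0.30) and Iglc1 of -1.55 (SE 0.36, adjusted p = 0.0123, edgeR). The Iglc3 count may hold reads of Iglc2 and is not free of the rule. The score itself stood at 18.4, 11.1, 10.9 and 6.88 times the level of other spots in members. Genes that go with the score can therefore show a lower ratio in V through the selection. The part of the selection in these calls was not tested. Igha, at 0.55 (SE 0.28), was not called, so the excess of IgA in members over their surroundings was not shown to differ between the groups. None of the 16 B cell genes, the 14 plasma cell genes or the 12 T cell genes was called.

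Most other called genes of the lists were those of tissue types. Of 6 white adipocyte genes 5 were called lower in V, among them Cfd (-1.79, SE 0.29), Car3 (-2.31, SE 0.28) and Adipoq (-1.95, SE 0.29). Members of the V male held only 2 UMIs of this list, so the V side of these calls rests on the V female. Of 11 macrophage genes 1 was called higher, Plet1 (1.67, SE 0.45), and 4 were called lower, the complement genes C1qa (-1.19, SE 0.24), C1qb (-1.22, SE 0.27) and C1qc (-1.09, SE 0.25) and the fatty acid carrier Fabp4 (-2.03, SE 0.26), which adipocytes also make. Of 7 AT2 genes 5 were called higher, with Sftpc, surfactant protein C, at 1.14 (SE 0.25) and Cxcl15 at 1.2 (SE 0.25). Of 7 AT1 genes 3 were called higher, among them Ager (0.89, SE 0.25) and Hopx (1.10, SE 0.26). Of 5 club cell genes 4 were called higher, with Scgb1a1, the main secreted protein of these cells, at 1.73 (SE 0.25) and Scgb3a2 at 2.79 (SE 0.34). In the V male Scgb1a1 was at 263 CPM in members and 259 in other spots, and in the V female at 19126 and 11151.

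The number of these calls depended on the mice used. With the V female left out 3 of the 292 remained called, and with the V male left out 113 remained. Ighm was at 1.89 and 4.24 times the level of other spots in members of the V mice, against 14.1 and 12.3 times in the NV mice.

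**Figure D5:**
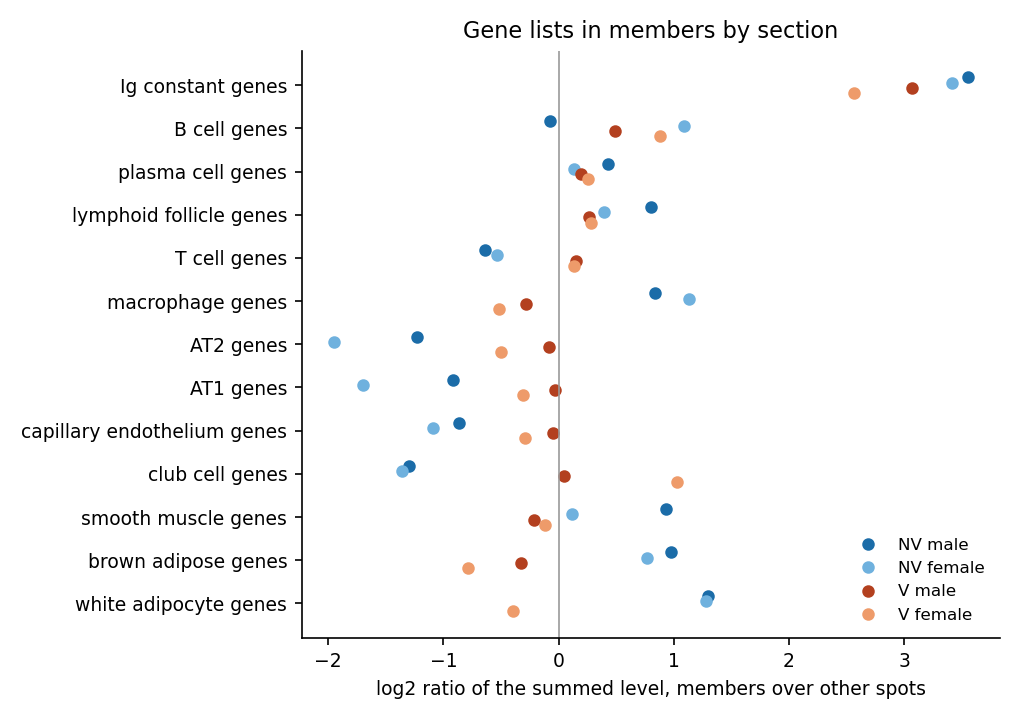
log2 ratio of the summed level of 13 gene lists, members over other spots, with 1 point per mouse. White adipocyte genes in the V male are not drawn because its members held 2 UMIs. Ig constant genes lie far to the right in all 4 mice, AT2 and club cell genes lie left of 0 in both NV mice, and macrophage (through Fabp4 in the V female), T cell, club cell, smooth muscle and brown adipose genes lie on opposite sides of 0 in the NV and V mice.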

How the data were processed

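The authors processed the 4 libraries with Space Ranger against mm10 and analysed them with Seurat 4.0.3 per the labels, and deposited 1 table of raw UMI counts per section, with 32285 genes by spot barcode. Spot positions and histology were not used here. The members and all gene lists were chosen with earlier results of these data known. Levels are summed UMIs of the spots of a class per 1000000 of their summed UMIs (CPM) (Python). Sums were tested with edgeR 4.0.16 (filterByExpr, TMM, quasi-likelihood F test, R 4.3.3), with members against other spots blocked by section, V against NV on member sums, and their interaction. A gene was called at an adjusted p (Benjamini-Hochberg) below 0.05 where its log2 fold change exceeded 0.25. The score genes were kept out of the first test and of the interaction, and the test of V against NV includes them. The procedure was tested on simulated data. DESeq2 1.42.0 served as an alternative, as did other UMI minimums, shares of spots, scores, thinning and left-out mice. Named genes were, for members against other spots, the called genes moving the same way in 4 sections, for V against NV the 5 with the smallest p in each direction without overlap, and from each list examples among the 6 genes with the highest mean level in members, picked after their values were seen. Genes named for the interaction and the AT2 division were chosen after their values were seen. Nothing in the labels separates technical from animal variation beyond 1 section per mouse. Whether RNA moved between spots was not tested.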

Additional observations from a re-analysis of the deposited data

Results flagged for a closer look

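The difference between members and other spots differed between V and NV mice for 292 genes by the interaction test. Among the antibody genes these were Ighm (-2.32 on the log2 scale, V minus NV), Iglc1 (-1.55) and Iglc3 (-2.0), the last of which may hold reads of Iglc2. The ratio of the score itself was also lower in the V mice, as given above, and its part in these was not tested. Among genes of the surrounding tissue they were Cfd (-1.79), Car3 (-2.31), Adipoq (-1.95) and Fabp4 (-2.03) of fat, C1qa (-1.19), C1qb (-1.22) and C1qc (-1.09) and Plet1 (1.67) of macrophages, Sftpc (1.14) and Cxcl15 (1.2) of AT2 cells, Ager (0.89) and Hopx (1.10) of AT1 cells, and Scgb1a1 (1.73) and Scgb3a2 (2.79) of club cells. For Cfd, Car3, Adipoq and Scgb3a2 the V side rests on the V female. Members of the V male held 2 UMIs of the white adipocyte list and 1 of Scgb3a2.

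Of 26 lists, white adipocyte and cartilage genes were not judged, since members of the V male held only 2 and 0 of their UMIs. For 7 of the remaining lists the members lay on one side of the other spots in both NV mice and on the opposite side in both V mice, which was not tested. The mean log2 ratio in V minus that in NV was 0.73 for T cell genes, -1.38 for macrophage genes, 1.86 for club cell genes, -0.69 for smooth muscle genes, -1.43 for brown adipose genes, 0.45 for red blood cell genes and 1.28 for mast cell genes. Some ratios lay close to 1, such as 1.03 and 1.10 for red blood cell genes in the V male and V female. The macrophage value rests on Fabp4 in the V female: without that gene, left out after the data were seen, it was -0.69, and the V female ratio of 1.12 lay on the side of the NV mice.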

How the results depend on the processing

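For members against other spots, the 4 calls became 15 with DESeq2, 233 with no filter on low counts, 8 with at least 5000 UMIs per spot, 0 with the highest 2.5% of spots, 1 with the highest 10%, 17 with Igkc left out of the score, 293 with a score of Cd79a and Mzb1, and 3 to 58 with 1 mouse left out (58 without the V female). Chosen after seeing the data, members with at least 10 score UMIs gave 11 and leaving out the 3 highest spots of each section gave 13. Without the section as a replicate block 0 were called. For V against NV in members, 0 calls became 3 with DESeq2, 362 with no filter, and 0 to 879 with 1 mouse left out (97 with the V male left out, 879 with the V female left out), and stayed at 0 with the replicate block. For the interaction, 292 became 77 with DESeq2, 84 with the highest 10%, 32 after thinning, 6 with Cd79a and Mzb1, 427 with the replicate block, and 3 to 623 with 1 mouse left out (623 without the NV male, 120 without the V male and 3 without its female counterpart). With the score of Cd79a and Mzb1 the sign turned for Igha in members (-0.36) and for the interactions of Igha (-2.96), Cfd (0.15), Adipoq (0.36) and Scgb3a2 (-0.28). Leaving out the 3 highest spots also turned that of Igha (-0.19). The causes were not tested. The IgA share of members, V minus NV, was 73.3 percentage points in all members, 3.01 in AT2-rich members alone and 29.4 with the score of Cd79a and Mzb1, where the V female stood at 20.3% and the NV female at 16.3%. Under 8 further settings it lay between 60.5 and 79.4, and between 60.9 and 85.6 with 1 mouse left out, all chosen after seeing the data. The value of 3.01 rests in the NV female on 1 of its 2 AT2-rich members. In AT2-rich other spots Igha made up 7.89%, 5.47%, 53.7% and 33.8% of heavy chain UMIs, without overlap between NV and V mice. The score gene level, V over NV on the log2 scale, was -1.97 and lay between -2.38 and -1.34 under the settings run, which did not include the score of Cd79a and Mzb1. No pairing beyond a shared sex stands behind the replicate numbers.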
